A study of Mus musculus with 16 samples.

Results

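The genes described here form a pattern rather than a pathway: in the lungs of ARF-DTR mice their signal was higher at 12 months than at 2 months, and lower again after diphtheria toxin (DT). ARF-DTR mice carry a receptor for DT under the control of the promoter of Arf, a product of the Cdkn2a locus. The series holds 16 lungs of female mice, 1 array each. Of the ARF-DTR lungs, 4 came from untreated 2-month mice, 4 from PBS-treated 12-month mice and 4 from DT-treated 12-month mice. Wild type mice, which lack the receptor, gave 2 PBS-treated and 2 DT-treated lungs, all at 12 months. Each DT injection was intraperitoneal, held 50 microgram per kg, and followed the last by 2 weeks over a span of 1 month, and the other 12-month mice received PBS alone. The 2-month mice were not injected, so age and the injections cannot be told apart. The labels do not say that the lungs of a group came from separate mice, so a p-value here covers variation among these lungs that may be only technical.

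Members were chosen by a fixed rule on the authors' deposited log2 table. A probe had to be well above background on at least 4 arrays. All 4 ARF-DTR 12-month PBS arrays had to lie above all 4 2-month arrays and above all 4 DT arrays, with a mean difference of at least 0.6 from 2 months and of at least 0.5 from DT (log2), and the DT mean had to lie at least 0.3 below the wild type PBS mean. Of 37037 probes bright enough, 1652 lay above 2 months on every PBS array, 374 of these also above every DT array, and 93 met every condition. After leaving out 3 probes by name (Cidea, Cd177 and Cyp3a57) and keeping the brightest passing probe of each gene name, 81 genes of 25599 remained. Without the condition on wild type PBS the same rule gave 106 genes. Every value of the 3 ARF-DTR groups and of wild type PBS therefore entered the choice and is given below as a description, without a test. The same PBS arrays set both the upper end of the rise and the upper end of the fall, so an array that reads high by chance helps a gene to pass on both counts. The wild type DT arrays entered only through the count of bright arrays: 6 members, among them Speer4b and Dppa3, reached 4 bright arrays only with their help, and 75 did so without them.

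Senescent cells are cells that have left the cell cycle for good, and Arf is one of the proteins they make. DT kills a cell by halting protein synthesis once a receptor has carried it inside, and mouse cells without an added receptor bind it poorly. Cells that express Arf in an ARF-DTR mouse are therefore the intended target, and wild type mice given DT show what the toxin does without the receptor. Arrays of a whole homogenised lung read the sum over all its cells, so fewer cells of a type and less RNA per cell cannot be told apart.

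Below, the rise of a gene is its PBS mean minus its 2-month mean in ARF-DTR, and the fall its DT mean minus its PBS mean. Signals are given as a percent of the 75th percentile signal of the same array, and differences on the log2 scale. Levels of different probes are not comparable. Array positions are on the mouse build mm9, as in the file headers. The 2-month and PBS arrays of ARF-DTR shared 1 slide, and the DT arrays and all wild type arrays the other. The fall after DT in ARF-DTR therefore cannot be told apart from a difference between slides. The same holds wherever DT-treated ARF-DTR or wild type lungs are set against 2-month lungs, or wild type against PBS-treated ARF-DTR lungs. The rise with age and every contrast of DT-treated ARF-DTR with wild type lie within a slide. The 75th percentile signal ran from 613 to 1088 scanner units, and 55.6% to 66.9% of the probes of an array were well above background. The median of all probes, relative to the 75th percentile, lay at -3.52 to -3.48 (log2) on the PBS arrays, at -3.71 to -3.53 at 2 months and at -3.71 to -3.66 after DT. On that measure every PBS array lay above every 2-month and every DT array, the order that the rule asks for. The part of that shift in the results was not tested. Foxj1 of ciliated cells and Cd79a of B cells were well above background in every lung, as were the surfactant gene Sftpc and the club cell gene Scgb1a1.

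The largest rises belonged to the Speer genes, a rodent family of glutamate-rich proteins known from the testis, whose near-identical copies lie in clusters on chromosome 5. The 8 members of this group are Speer4e, Speer4d, Speer4b, Speer5-ps1, Gm9758, Gm5862, Gm10220 and Gm17019, the 4 genes with Gm names having been added to the group after their values were seen. Their array probes show how far these genes can be read apart. The sequences of 4 of the 60-base probes are printed here because they overlap: Gm5862 and Gm10220 share 41 bases in a row, and Gm9758 and Speer4d share 34. Capitals mark the run shared within each pair.
Gm5862, chr5:26345905-26345964: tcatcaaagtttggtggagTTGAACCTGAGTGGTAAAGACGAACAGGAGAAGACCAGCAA
Gm10220, chr5:26444329-26444388: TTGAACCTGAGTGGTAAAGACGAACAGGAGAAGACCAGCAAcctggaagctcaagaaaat
Gm9758, chr5:14911341-14911400: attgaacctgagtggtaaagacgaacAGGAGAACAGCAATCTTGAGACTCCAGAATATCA
Speer4d, chr5:15128398-15129200: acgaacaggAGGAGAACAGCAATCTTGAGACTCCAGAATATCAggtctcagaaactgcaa
The span that the headers give for Speer4d is wider than its probe. Gm9758 also shares 32 bases in a row with each of Gm5862 and Gm10220. These 4 probes may therefore read one another's transcripts, and their values do not count as 4 separate genes. The array design also matches the Gm9758 probe to Speer4e, Gm17019 and Gm10354, and the Gm17019 probe to Gm9758. It matches the Speer4d probe to Speer4c and Gm10354, and the Gm10220 probe to 5031410I06Rik. The 8 members thus do not count as 8 separate genes either. The probes of Speer4e and Speer5-ps1 share at most 9 bases in a row with any other probe of the group, and Speer5-ps1 is placed on chromosome 10, at chr10:43939023-43939082.

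Speer4e had the largest fitted rise of all members. Its signal at 2 months was 0.429%, 0.547%, 4.33% and 1.08% of the 75th percentile in replicates 1 to 4. It was 32.1%, 17.6%, 24.3% and 46.7% with PBS at 12 months, and 10.95%, 4.85%, 8.77% and 5.92% after DT. The wild type lungs read 18.8% and 18.7% with PBS, and 13.7% and 15.7% with DT. All 12-month lungs of both genotypes thus lay above all 2-month lungs, and the 4 DT-treated ARF-DTR lungs lay below all other 12-month lungs. The PBS mean exceeded the 2-month mean by 4.79 ± 0.58 (log2, SE of the fit, n = 4 and 4), and the DT mean lay -1.97 ± 0.58 from the PBS mean. At 2 months only 1 of the 4 arrays was well above background, so the size of the rise is poorly bounded. With each dim array set to the lowest signal that counted as well above background on it, or to its own signal if higher, the rise was 3.66.

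Speer5-ps1 was the brightest probe of the group and was well above background on all 16 arrays. It read 5.38%, 6.77%, 25.5% and 12.6% at 2 months, and 104%, 75.9%, 86.9% and 145% with PBS. After DT it read 70.9%, 35.7%, 57.7% and 45.9%. Wild type lungs gave 116% and 122% with PBS and 110% and 90.0% with DT. Again no 12-month value overlapped the 2-month values, and the DT-treated ARF-DTR lungs were the lowest at 12 months. The rise was 3.26 ± 0.40 and the fall -0.97 ± 0.40 (log2).

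The other members of the Speer group were also highest with PBS among the ARF-DTR groups, but not all kept the DT-treated lungs apart from 2 months. Speer4d was at 0.980% to 8.41% at 2 months, 29.8% to 55.2% with PBS and 10.75% to 28.8% after DT. Gm9758 was at 2.03% to 11.6%, 35.5% to 72.5% and 14.95% to 34.4% in the same 3 groups. The mean of Gm5862 was 1.64% at 2 months, 18.8% with PBS and 7.92% after DT, and that of Gm10220 was 1.54%, 14.8% and 5.91%. In Speer4d, Gm9758 and Gm5862 every DT array lay above every 2-month array, while in Gm10220 the lowest DT array (4.31%) fell just below the highest 2-month array (4.32%). Speer4b was dim: 0 of 4 arrays at 2 months and 0 of 4 after DT were well above background, and 2 of 4 with PBS. Its PBS signal was at least 2.07-fold higher than at 2 months and at least 1.87-fold higher than after DT, with dim arrays set in the same way. Its DT values, 0.4996% to 1.31%, overlapped 2 months, 0.477% to 0.832%. Gm17019 lay at 4.91% to 9.74% with PBS, against 0.960% to 2.84% at 2 months and 0.518% to 3.75% after DT. Its lowest DT array lay below every 2-month array.

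The fall of the 8 genes amounted to 29.4% to 91.9% of their rise, with a median of 38.0%. The highest shares were those of the dim member probes of Gm17019 (91.9%) and Speer4b (89.1%). Brighter probes that did not meet the rule gave 32.9% and 26.9% for Gm17019 and 34.8% for Speer4b. On these brighter probes every DT array lay above every 2-month array. Over all 81 members the fall amounted to 29.4% to 246% of the rise, with a median of 91.8%. No DT mean of the group lay below its 2-month mean. In wild type lungs with PBS, both arrays lay above every 2-month array (23.1% of all probes) and above every DT-treated ARF-DTR array (16.8%) for 8 of 8 genes. The arrays of a group also kept an order across these genes. The 2-month replicate 3 was the highest of its group in 8 of 8 genes and replicate 1 the lowest in 7. PBS replicate 4 was the highest in 7, and DT replicate 1 in 8.

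**Figure D1:**
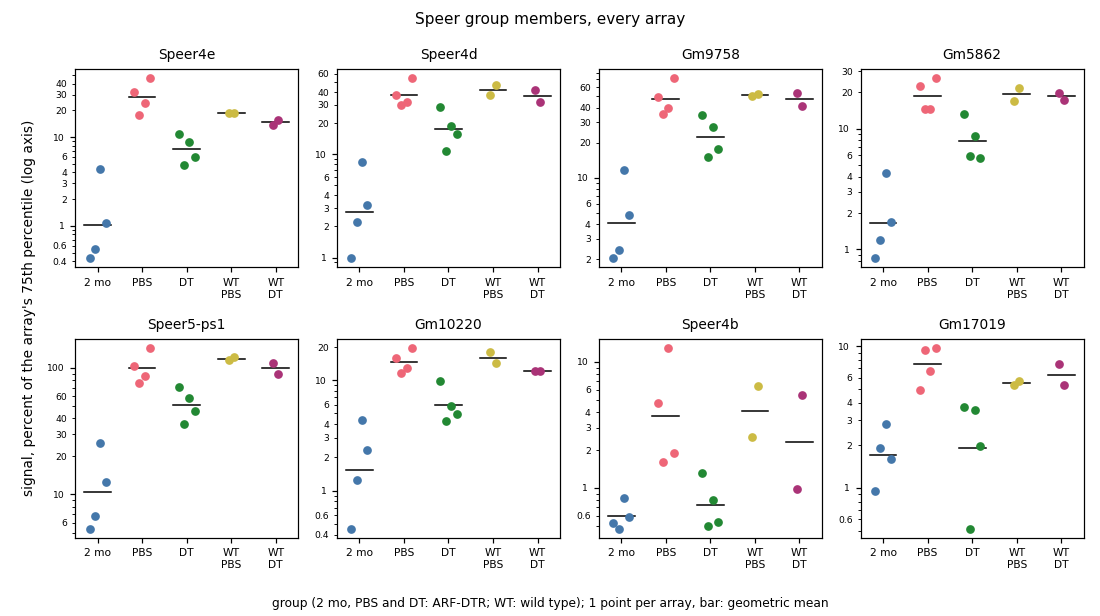
Signal of the 8 Speer group members on every array, as a percent of the array's 75th percentile on a log axis, with the geometric mean of each group as a bar. In all 8 panels the PBS lungs lie above the 2-month and DT-treated ARF-DTR lungs. The DT mean lies between those of the other 2 groups, and single DT lungs reach the 2-month range in Gm10220, Speer4b and Gm17019.

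The wider family was not uniform. The array carries 14 gene names that begin with Speer, on 21 probes, of which 15 probes were bright enough to test. Of these, 15 of 15 had a higher mean with PBS at 12 months than at 2 months and 13 of 15 a lower mean after DT, and 4 were members, chosen for this order. Of the 11 that were not members, 11 were higher at 12 months and 9 lower after DT, and 3 of the 11 read a gene that has a member probe. Over all 37037 probes, 15904 had a higher mean at 12 months and 18203 a lower mean after DT. The design matches 4 of the 15 probes to more than 1 RefSeq gene, so counts of probes overstate the number of genes.

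The promoters of the Speer members fall into 2 sets of like sequence. RefSeq promoter windows (GRCm38.p6, 250 bases before to 50 after the start) were found for 48 members. The windows of Speer4e, chr5:14938426-14938725 on the minus strand, and Speer4d, chr5:15618849-15619148 on the plus strand, are shown because they can be laid over each other with a shift of 35 bases. Over those 265 bases 258 were identical (97.4%). Laid over each other in the same way, the windows of Speer4e, Speer4d, Speer4b and Gm17019 were 96.6% to 97.7% identical, and those of Gm9758, Gm5862 and Gm10220 87.1% to 100%. Between the 2 sets the identity was 62.6% to 80.0%. Capitals mark GTTGCC, read on both strands.
Speer4e: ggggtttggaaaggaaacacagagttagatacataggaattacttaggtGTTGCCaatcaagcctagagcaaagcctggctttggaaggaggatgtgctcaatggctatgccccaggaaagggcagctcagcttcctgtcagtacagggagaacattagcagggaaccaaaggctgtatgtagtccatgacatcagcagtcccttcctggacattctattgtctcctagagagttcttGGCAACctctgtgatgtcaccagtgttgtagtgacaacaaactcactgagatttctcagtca
Speer4d: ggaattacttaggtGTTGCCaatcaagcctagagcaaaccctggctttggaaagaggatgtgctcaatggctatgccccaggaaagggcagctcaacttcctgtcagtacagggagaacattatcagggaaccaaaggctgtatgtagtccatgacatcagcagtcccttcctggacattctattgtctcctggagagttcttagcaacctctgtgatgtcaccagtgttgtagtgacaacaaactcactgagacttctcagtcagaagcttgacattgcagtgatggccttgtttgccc
GTTGCC is an arm of the X-box that RFX factors bind, and RFX factors are known for ciliary and testis genes. It occurred in 6 of 7 Speer windows and in 7 of 41 other members with a window (17.1%), beside 14.1% of all 27025 genes with a window. A gene with several windows counted if any of them held it. The window without it is that of Gm5862. Windows as alike as those within a set do not count separately. TGANTCA, the AP-1 motif, stood in 9 of 48 members (18.8%) and 8.97% of all genes, and no Speer window held it. The E-box CACGTG occurred in 8.33% of members and 8.09% of all genes. The CCAAT box was found in 41.7% and 41.1%, and GGGCGG, the GC box, in 35.4% and 38.2%. The TATA box TATAAA, the CRE element TGACG and the nuclear receptor element AGGTCA were sought as well, and no test was made of any of the 8. Where 2 motifs overlapped, each was counted. A match describes letters in a window and not a bound site.

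Several metabolic enzymes were members. Hsd3b2 is one of the 3-beta-hydroxysteroid dehydrogenases of steroid synthesis (chr3:98515054-98515113). Its PBS values were 6.67%, 5.14%, 5.80% and 10.14%, against 4.29%, 2.00%, 2.41% and 2.27% at 2 months and 1.72%, 2.95%, 1.53% and 2.64% after DT. Wild type lungs read 7.88% and 7.22% with PBS but 2.80% and 3.14% with DT. On this probe DT-treated lungs of both genotypes lay below all PBS lungs. A brighter probe of Hsd3b2, well above background on all 16 arrays, did not follow: its difference was -0.12 with age, 0.10 after DT in ARF-DTR and -0.17 in wild type. On the member probe the wild type difference was -1.35 ± 0.39 (log2, n = 2 and 2), with a limma adjusted p of 0.165.

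Bbox1, the last enzyme of carnitine synthesis, had values of 21.7% to 55.8% at 2 months, 85.0% to 103% with PBS and 45.9% to 67.7% after DT. Its wild type values were 136% and 127% with PBS and 87.5% and 75.1% with DT. Ggt1 and Ggt6, gamma-glutamyl transferases that act on glutathione, Gstm3, a glutathione transferase, Gls2, a glutaminase, and Acot5, an acyl-CoA thioesterase, were also members. Ggt6 lay at 121% to 148% with PBS, 73.6% to 107% at 2 months and 81.8% to 119% after DT; the highest DT value nearly reached the lowest PBS value. Across the 8 enzymes among the members, the rise ran from 0.63 to 1.36 and the fall from -1.66 to -0.54. For all 8, both wild type PBS lungs lay above every 2-month lung (23.1% of all probes) and every DT-treated ARF-DTR lung (16.8%), and the rule had asked for the wild type PBS mean to lie above the DT mean. A brighter probe of Gstm3 that did not meet the rule read differences of 0.11 with age and -0.12 after DT.

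A second set of members is known from neurons, secretory vesicles and ion channels, though all of these probes read signal in whole lung. Syt5, a synaptotagmin of vesicle release, was the brightest of all members. It read 210%, 275%, 392% and 280% at 2 months, 472%, 581%, 579% and 598% with PBS, and 360%, 276%, 293% and 275% after DT. Wild type lungs read 737% and 661% with PBS and 462% and 613% with DT. No DT value of ARF-DTR reached a PBS or a wild type value, and the rise was 0.98 ± 0.17 with a fall of -0.89 ± 0.17 (log2).

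Agrp encodes a peptide that blocks melanocortin receptors and is best known from the hypothalamus. It read 55.7%, 56.5%, 53.3% and 51.1% at 2 months, 99.3%, 187%, 140% and 137% with PBS, and 79.6%, 77.3%, 70.6% and 73.2% after DT. The wild type values were 226% and 229% with PBS and 116% and 200% with DT. The 3 ARF-DTR groups did not overlap, and after DT the level stayed above 2 months, with a fall of 64.9% of the rise. A lincRNA probe 12.9 kb from it, placed at chr8:108103549-108103608 on the same strand, was a member too. Its means were 4.16%, 10.3% and 4.52% in the 3 ARF-DTR groups and 20.5% in wild type with PBS.

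Ppp2r2c is a regulatory subunit of the phosphatase PP2A. It read 18.9%, 13.4%, 8.71% and 11.2% at 2 months, 37.3%, 49.7%, 38.5% and 40.9% with PBS and 28.2%, 31.3%, 19.4% and 21.2% after DT. Wild type lungs read 50.7% and 46.1% with PBS but 28.0% and 24.5% with DT. The wild type DT lungs thus lay inside the range of the DT-treated ARF-DTR lungs. The wild type difference was -0.88 ± 0.30 (log2), with a limma adjusted p of 0.225.

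Cdhr1, a cadherin of photoreceptors, was another member with very low signal at 2 months. It read 0.395%, 0.608%, 3.58% and 1.85% at 2 months and 13.2%, 8.07%, 5.56% and 18.7% with PBS. After DT it read 4.30%, 1.58%, 2.16% and 2.94%. In wild type lungs it was 7.54% and 7.78% with PBS, and 11.5% and 12.5% with DT, so both wild type DT lungs lay above both wild type PBS lungs. At 2 months 1 of 4 arrays was well above background, so the size of the rise is poorly bounded: 3.19 as fitted and 2.25 with the dim arrays set as for Speer4e. The 2-month replicate 3 was again the highest of its group.

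Olig3, a transcription factor of the neural tube, lay at 15.4% to 20.8% with PBS, 4.11% to 11.1% at 2 months and 2.85% to 6.52% after DT. Its wild type values were 13.99% and 14.7% with PBS and 7.58% and 11.5% with DT. Grip2, a scaffold of glutamate receptors, read 13.2% on 1 PBS array and 6.67% to 7.48% on the other 3. Kif1a, a motor for synaptic vesicle precursors, ranged from 108% to 187% with PBS and overlapped neither 2 months (54.9% to 81.4%) nor DT (78.8% to 99.1%). Htr2b, a serotonin receptor, had 2 very even groups, 42.5% to 43.7% at 2 months and 38.4% to 39.9% after DT, against 70.9% to 95.7% with PBS. Rab3b of vesicle docking, the potassium channel gene Kcnh3 and Dpp6, a partner of potassium channels, completed this set.

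**Figure D2:**
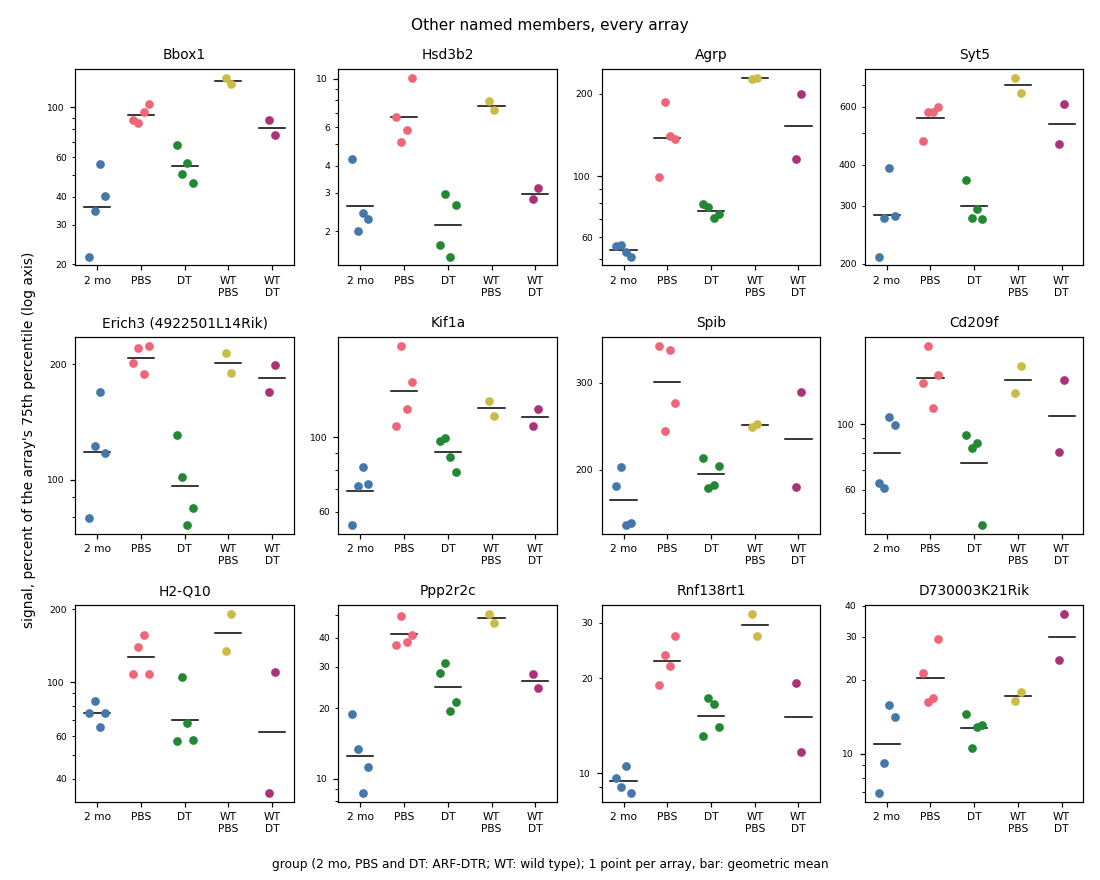
Signal of 12 further members on every array, as a percent of the array's 75th percentile on log axes, with group geometric means as bars. PBS lungs of ARF-DTR lie above the 2-month and DT lungs in each panel, and the wild type DT lungs fall near the DT range for Hsd3b2, Ppp2r2c and Rnf138rt1 but above wild type PBS for D730003K21Rik.

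Members with a role in cilia included Erich3 (named 4922501L14Rik on the array), Hydin (read by the probe named Gm9558) and Dcdc2a. Cilia are the motile or sensory projections of cells, and Hydin is part of the central pair of motile ones. Erich3 read 79.7%, 122%, 169% and 117% at 2 months, 201%, 221%, 188% and 224% with PBS, and 130%, 102%, 76.4% and 84.5% after DT. Wild type lungs read 214% and 190% with PBS and 169% and 200% with DT. DT-treated ARF-DTR lungs were below every other 12-month lung and overlapped 2 months. The promoter window of Erich3 (RefSeq, GRCm38.p6, chr3:154710883-154711182, plus strand) is shown because it holds both the X-box arm GTTGCC and the AP-1 motif TGANTCA, marked in capitals.
Erich3: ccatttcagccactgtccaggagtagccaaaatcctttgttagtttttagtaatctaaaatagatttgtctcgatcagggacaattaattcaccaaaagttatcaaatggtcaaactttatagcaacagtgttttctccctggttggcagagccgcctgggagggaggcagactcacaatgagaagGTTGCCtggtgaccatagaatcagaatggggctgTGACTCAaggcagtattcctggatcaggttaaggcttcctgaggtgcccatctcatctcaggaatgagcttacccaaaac
Both motifs stood together here; no factor binding was measured.

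The Hydin probe read 6.36% to 11.3% with PBS, 3.63% to 4.96% at 2 months and 2.69% to 4.71% after DT.

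Hydin was the 1 member on the fixed list of 15 ciliated cell genes. Of that list, 0 genes were called higher and 0 lower with age (limma, adjusted p under 0.05; 2.17% of all 37037 probes were called higher and 2.98% lower), with a median of 0.33. After DT in ARF-DTR 0 were called higher and 8 lower, with a median of -0.51, beside 14.4% and 11.5% of all probes. In wild type the list's median was -0.33 with DT and 0 genes were called. Foxj1, the master regulator of motile cilia, had means of 488%, 492% and 427% in the 3 ARF-DTR groups.

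Immune members are known from several cell types. Spib, a transcription factor of B cells and plasmacytoid dendritic cells, read 185%, 202%, 155% and 156% at 2 months, 357%, 240.0%, 349% and 273% with PBS, and 212%, 184%, 186% and 203% after DT. Wild type lungs read 245% and 248% with PBS and 184% and 288% with DT. The wild type DT lungs lay on both sides of the wild type PBS lungs. On the fixed list of 20 B cell genes the median was 0.62 with age, with 7 called higher and 0 lower (2.17% and 2.98% of all probes), and -0.32 after DT, with 0 higher and 4 lower (14.4% and 11.5%). In wild type it was -0.13. Cd79a, part of the B cell receptor, had means of 253%, 387% and 300% in the same 3 ARF-DTR groups, and 506% and 417% in wild type with PBS and DT. The part of B cell content in the values of Spib was not tested.

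Cd209f is a C-type lectin of the family of DC-SIGN. It lay at 113% to 184% with PBS, 60.7% to 106% at 2 months and 45.8% to 91.7% after DT. H2-Q10, a secreted class I histocompatibility protein, read 74.6%, 84.0%, 65.6% and 74.7% at 2 months, 108%, 140%, 157% and 108% with PBS, and 57.2%, 105%, 67.7% and 58.1% after DT. Wild type lungs read 134% and 192% with PBS and 35.2% and 110% with DT. H2-Q10 had the lowest wild type difference among the named members, -1.36 ± 0.42, with a limma adjusted p of 0.190, and its wild type DT values differed from each other by more than the 4 DT-treated ARF-DTR values did. A brighter H2-Q10 probe, well above background on all 16 arrays, went the other way after DT: its difference was 0.16 with age, 0.53 after DT in ARF-DTR and 0.23 in wild type.

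Masp1, a protease of the lectin pathway of complement, had the fall that was largest relative to its rise, 246% of it. It read 3.20%, 2.92%, 3.47% and 3.14% at 2 months, 5.89%, 6.06%, 6.215% and 3.89% with PBS, and 1.18%, 2.65%, 1.20% and 1.20% after DT. Its wild type values, 1.44% and 2.60% with PBS and 1.95% and 2.83% with DT, all lay below the 2-month lungs and 0 of 4 were well above background. The 2-month lungs were ARF-DTR lungs on the other slide, so a rise with age in wild type cannot be judged on this dim probe. Mst1, which encodes macrophage-stimulating protein, and the TRIM ligase genes Trim15 and Trim30b were the other immune members. On the fixed complement list, 18 genes measured, the median after DT was 0.54 with 9 called higher and 1 lower (14.4% and 11.5% of all probes). That median is opposite in sign to the member probe of Masp1, while a second Masp1 probe, well above background on 6 arrays, differed by 1.65 with age and by 0.53 after DT. On the second probe DT-treated ARF-DTR differed from wild type PBS by only -0.17, so wild type PBS also lay above 2 months there.

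Genes of germ cells and early embryos made up a small set. Dppa3, which protects the maternal genome in the early embryo, was dim, with 0 of 4 arrays above background at 2 months and after DT and 2 of 4 with PBS. Its PBS signal was at least 1.66-fold higher than at 2 months and at least 1.5-fold higher than after DT. Under the background correction normexp its fall was lost, at 0.00052. Rnf138rt1, related to a ubiquitin ligase gene, had even groups: 8.67% to 10.5% at 2 months, 19.0% to 27.2% with PBS and 13.2% to 17.3% after DT. Its wild type values were 32.0% and 27.2% with PBS and 19.3% and 11.7% with DT. The wild type difference was -0.98 ± 0.22, and its limma adjusted p of 0.0937 was the lowest among the named members. Dkkl1, an acrosome protein, and Tbata, expressed in testis and thymus, were also in this set.

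Among the remaining members, Hs3st6, a heparan sulfate sulfotransferase, read 113% to 135% at 2 months, 208% to 240% with PBS and 131% to 174% after DT. The DT and 2-month ranges overlapped. Klhl14, a BTB-kelch protein, lay at 6.21% to 10.5% with PBS, 3.50% to 5.71% at 2 months and 2.75% to 4.85% after DT. The RIKEN gene 1700007K13Rik read 177% to 225% with PBS, 68.6% to 157% at 2 months and 116% to 164% after DT. A930004D18Rik was well above background only on the 4 PBS arrays and 1 wild type DT array, at least 2.56-fold higher with PBS than at 2 months and at least 2.31-fold higher than after DT. D730003K21Rik and Fyb2 (named 1700024P16Rik on the array) had higher wild type signal with DT than with PBS, by 0.81 ± 0.36 and 0.59 ± 0.29, with limma adjusted p of 0.368 and 0.420. Under normexp the ARF-DTR difference of Fyb2 after DT turned from -0.54 to 0.03. A further 12 members were probes of lincRNA regions without a gene name.

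**Figure D3:**
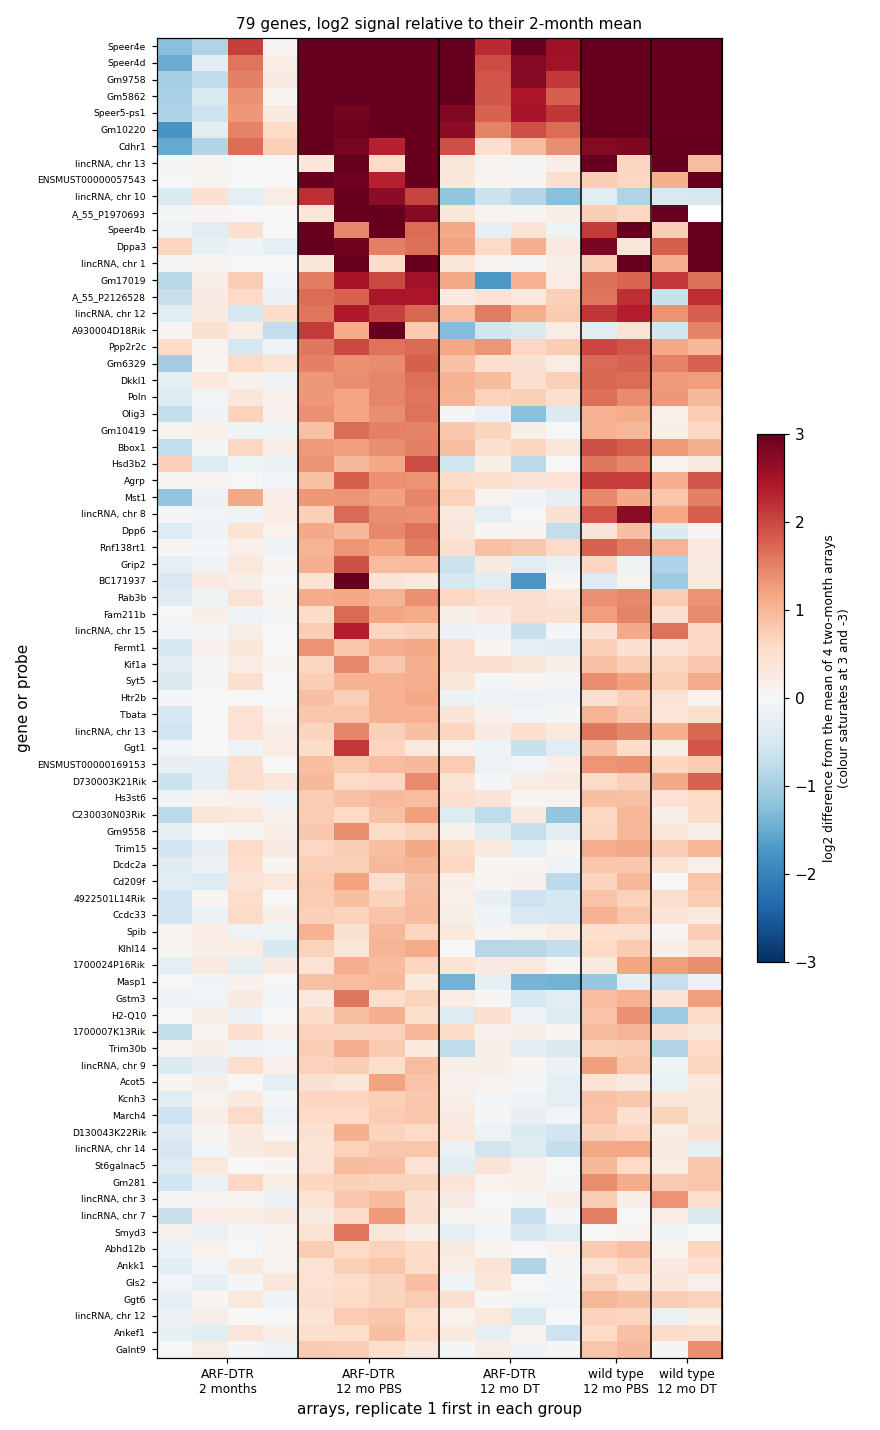
Colour map of 79 of the 81 members (rows, by size of the rise) on the 16 arrays (columns), as the log2 difference from each gene's 2-month mean; the white cell of the last array for A_55_P1970693 has no value. The 4 PBS columns are red in every row, the 4 DT columns are close to white in most rows, and the wild type columns are mostly red with PBS.

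Over all members the median rise was 0.95 (0.60 to 4.79) and the median fall -0.95 (-3.75 to -0.51), beside -0.03 and 0.01 over all probes. The rise was at least 2-fold for 38 members, and the fall for 38. Of the 81, 53 passed limma with age (2.17% of all probes passed as higher), 66 with DT in ARF-DTR (11.5% passed as lower) and 28 for DT-treated ARF-DTR against wild type PBS (2.85% passed as lower). These contrasts made the choice, and nothing is read from those counts. The DT mean lay below the 2-month mean for 33 members and above it for 48, beside 20256 and 16780 of all 37037 probes. All 4 DT arrays lay below all 4 2-month arrays for 4 members (13.8% of all probes) and above them for 12 (13.5%).

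Members were found at every level. With probes split by their mean level, members made up 0.336% of probes below -4 (log2, relative to the 75th percentile), 0.345% from -4 to -2, 0.233% from -2 to 0 and 0.0720% above 0. Over all probes the median difference after DT in ARF-DTR ran from -0.14 in the dimmest bin to 0.10 in the brightest. In wild type it ran from -0.14 to 0.00. On all 16 arrays 56 members were well above background, while 9 were so on no 2-month array and 11 on no DT array.

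Values near the thresholds show how gradual the choice was. Among members with a gene symbol, Galnt9, Ankef1 and Ggt6 were the last inside on the rise, at 0.60, 0.62 and 0.63, and Efcab6, Xylb and Bzrap1 the first outside, at 0.60, 0.59 and 0.59. On the fall 1700007K13Rik, Gm281 and Abhd12b were the last inside, each at -0.53, with Akap14, Gdpd2 and Lrriq3 outside at -0.48, -0.46 and -0.34. On the difference from wild type PBS, Smyd3, Spib and Acot5 were inside at -0.33, -0.33 and -0.36, and Mtnr1a, Trim40 and Esrrg outside at -0.27, -0.18 and -0.15.

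Other probes of the same genes were counted as well. Of the 81 genes, 29 had another probe bright enough, 47 probes in all. Of these, 38 had a PBS mean above 2 months and a DT mean below PBS, among them the 9 that met the rule too. A further 2 were higher at 12 months without being lower after DT, and 7 were not higher at 12 months. These probes read the same lungs that chose the genes, so the counts are fixed in part by the choice. No share over all probes was taken, and nothing is read from the counts. In 13 genes a brighter probe did not meet the rule.

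The rule was also applied with 1 array left out at a time, except that the count of bright arrays kept all 16. Without PBS replicate 1, 133 genes were chosen, and the array left out lay above the 2-month mean by a median of 0.52, against 0.93 for the PBS arrays that chose them. For replicates 2, 3 and 4 the medians were 0.70, 0.84 and 0.78, against 1.004, 1.05 and 1.097. Towards DT the array left out stood 0.55, 0.66, 0.81 and 0.85 higher, against 0.97, 0.96, 1.06 and 1.08. The array left out was lower than the arrays that chose in each of these 8 medians. The 2-month and DT arrays it is set against still chose the genes for being low, so part of each distance is fixed by the choice. The PBS array left out lay above every 2-month and every DT array in 87 of 133, 72 of 107, 74 of 97 and 81 of 109 genes. These counts too are fixed in part by the choice. No share over all probes was taken, and nothing is read from them. The 2-month replicate 3 mattered most: without it 163 genes were chosen, and its own distance below PBS was a median of 0.30, against 0.86, with 58.3% of the genes below every PBS array. Among the members it was the 2-month array nearest to PBS, above its group mean in 59 of 81 genes, and DT replicate 1 was above its group mean in 66.

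**Figure D4:**
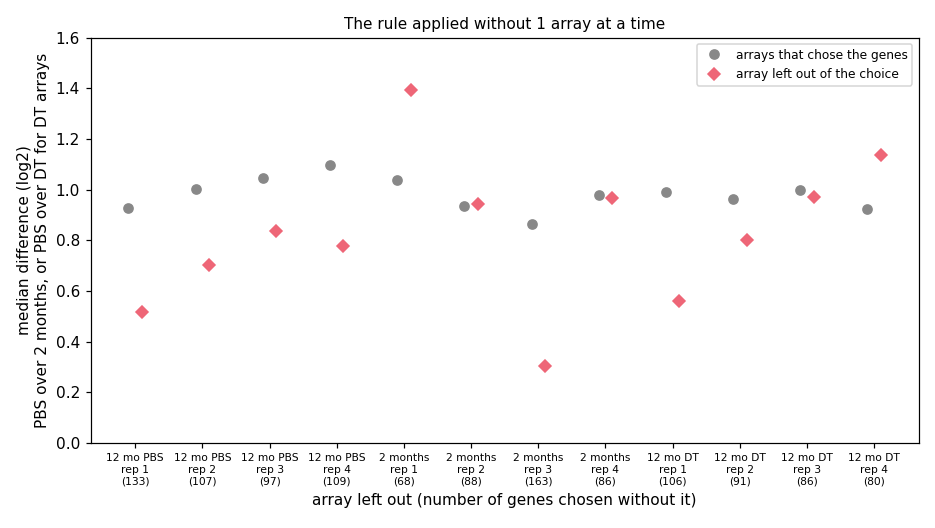
Median log2 difference when the rule was applied without 1 array, for the arrays that chose the genes (circles) and for the array left out (diamonds), with the number of genes chosen in brackets; PBS and 2-month arrays are compared as PBS over 2 months, DT arrays as PBS over DT. Each PBS array left out lies below the circles, and 2-month replicate 3 lies lowest at 0.30.

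Wild type lungs with PBS resembled ARF-DTR lungs with PBS in these genes, as the rule in part required. The median difference between them was 0.02, and the 2 groups lay on different slides. Wild type PBS lay above 2 months in 78 of 81 members with a median of 0.91, beside 17595 of 37037 probes and a median of -0.02. Both arrays lay above every 2-month array in 68 members (23.1% of all probes). Both lay above every DT-treated ARF-DTR array in 70 (16.8% of all probes).

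The wild type DT lungs entered the choice only through the count of bright arrays, and the contrast of DT with PBS in wild type asks what the toxin did without the receptor. For the 81 members the median difference was -0.34, with 66 below 0, beside -0.03 and 56.2% over all probes. Because wild type PBS had to be high, this value leans downwards by choice. For the 106 genes chosen without the condition on wild type PBS the median was -0.26 with 77 below 0. Of these, 99 were bright enough on ARF-DTR arrays alone, with a median of -0.27 and 75 below 0. Both wild type DT arrays lay below both wild type PBS arrays in 42 of 81 members and 49 of 106 genes, against 25.3% of all probes, and above them in 5 and 14, against 17.7%. By limma, with adjusted p under 0.05, 0 of 81 members and 0 of 106 genes were called, beside 0.14% of all probes lower and 0.0594% higher. At an unadjusted p under 0.05, 19 members and 22 of the 106 genes were lower (8.18% of all probes), and 3 and 8 were higher (4.86%).

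With 2 lungs a group, single lungs decided these counts. A fit without 1 of these lungs leaves 1 array in its group, and the spread then comes from the other groups. Calls from such fits are given as a description only. Without wild type DT replicate 2, 4 members were called, H2-Q10, Abhd12b, Trim30b and the unnamed A_55_P2126528, all lower. Without wild type DT replicate 1, 2 members were called, Rnf138rt1 as lower and ENSMUST00000057543 as higher, and the members at an unadjusted p under 0.05 and lower fell to 5. Without wild type PBS replicate 1 or 2 that count was 9 or 8. Without PBS replicate 1 of ARF-DTR, or in a fit on the second slide alone, 1 member was called, A_55_P1970693 as higher, a probe with a value on 1 of the wild type DT arrays only. Among the 106 genes a lincRNA probe on chromosome 10 was called higher without 2-month replicate 3 or without wild type DT replicate 1, and TC1778268 without wild type PBS replicate 1.

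**Figure D5:**
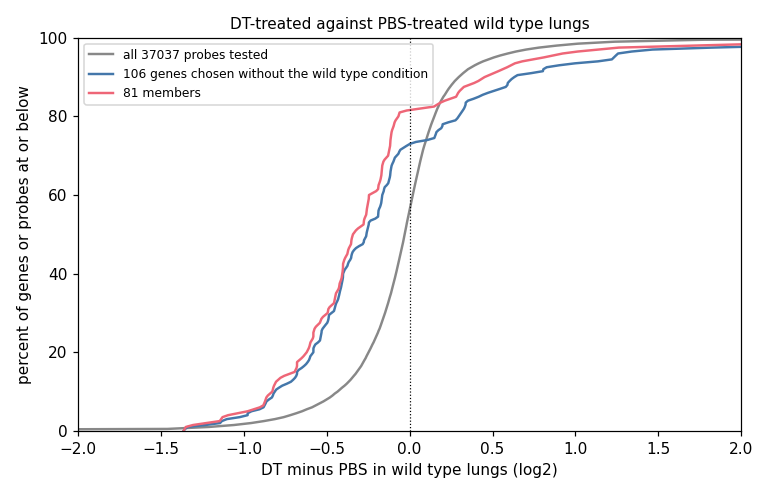
Cumulative share of genes or probes (vertical axis, percent) by the log2 difference of DT from PBS in wild type lungs (horizontal axis), for the 81 members, the 106 genes chosen without the condition on wild type PBS and all 37037 probes; a few values lie beyond the axis. Both chosen sets lie left of all probes below 0, with medians of -0.34 and -0.26 against -0.03.

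DT-treated lungs of both genotypes lay on the same slide and could be set side by side. The DT-treated ARF-DTR mean was below the DT-treated wild type mean in 75 of 81 members, with a median of -0.56. It was below in 87 of 106 genes, with a median of -0.51, and in 16688 of all 37037 probes, with a median of 0.02. Both wild type DT arrays lay above all 4 DT-treated ARF-DTR arrays in 42 members (9.35% of all probes). The ARF-DTR arrays of this contrast chose the genes for being low, so it is given without a test. Both wild type DT arrays also lay above every 2-month array in 44 members (19.3% of all probes), with a median difference of 0.67. The 2-month arrays were on the other slide.

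The probe read for Cdkn2a, whose Arf promoter drives the receptor, did not follow the pattern, and neither did those for Cdkn1a, Cdkn2b or Hbegf. The Cdkn2a probe had means of 31.3%, 24.7% and 31.4% at 2 months, with PBS and after DT. The differences were -0.34 ± 0.27 and 0.34 ± 0.27 (limma adjusted p of 0.550 and 0.377). Its values after DT ran from 22.1% to 43.8%. Whether it reads Arf apart from other products of the locus was not tested. Cdkn1a, a cell cycle inhibitor, was 0.80 ± 0.11 higher with PBS than at 2 months in ARF-DTR (limma adjusted p of 0.00146). It stood 0.18 ± 0.11 higher after DT (limma adjusted p of 0.247). Wild type lungs with PBS read 231% and 203%, beside a 2-month ARF-DTR mean of 215% on the other slide. No wild type lungs of 2 months were measured, so a rise with age in wild type cannot be judged. Cdkn2b was 0.29 ± 0.08 lower after DT in ARF-DTR (limma adjusted p of 0.0141), without a rise beforehand. In wild type lungs Cdkn2b differed by -0.43 ± 0.11 with DT (limma adjusted p of 0.118). Hbegf, the mouse gene for the growth factor that serves as DT receptor in other species, passed in neither ARF-DTR contrast.

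Some members are neighbours in the genome. Within 100 kb on mm9, 9 pairs of adjacent members were found, holding 16 of the 81. Of these pairs, 4 lie in the Speer clusters of chromosome 5. The others are Ggt1 with Fam211b 35.5 kb apart on chromosome 10, a pair of lincRNA probes 27.7 kb apart on chromosome 12, Gm281 with a lincRNA probe 34.1 kb away on chromosome 14, Agrp with its lincRNA neighbour, and Ccdc33 with a lincRNA probe 85.7 kb away on chromosome 9. Chromosome 5 holds 13 members.

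Beyond these genes, none of the 41 fixed lists of pathways and cell types followed the pattern as a whole. Of 646 listed genes measured, 4 were members, each on its own list, and 0 lists had an average that was higher on all PBS arrays than on all 2-month and all DT arrays.

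How the arrays were scaled set how many genes met the rule. The background correction normexp left 20 genes, scaling to each array's median 35 and quantile normalization 52. The members that met it under all 3 numbered 14, among them Speer4e, Ppp2r2c, Olig3, Bbox1, Agrp, Mst1, Syt5, Htr2b, Tbata, Cd209f, Erich3, Ccdc33 and Kcnh3. Under none of the 3 did 31 members meet it, among them Speer4d and Gm9758 of the Speer group. Gm5862 met it under quantile normalization alone. Median scaling moved the median of all probes by 0.18 for DT in ARF-DTR and normexp by 0.11. The rise kept its sign in all 81 under each scaling, and the fall after DT turned sign in 5 under normexp (Dppa3, Fyb2, Galnt9, C230030N03Rik and a lincRNA probe on chromosome 9) and in 0 under the other 2.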

How the data were processed

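RNA of 16 homogenised lungs was read on Agilent single-colour 8 x 60K arrays. Per the file headers and the submitters' processing notes, scans were quantified in Agilent Feature Extraction (10.10.1.1), and the deposited files hold intensity values per spot, background-subtracted but not scaled between arrays. The authors' deposited series table holds log2 values, which equal the log2 intensity minus each array's 75th percentile up to a constant of at most 0.0105, with no centring of genes. Any further step is not given in the sources used here. Control and outlier spots were dropped and the rest averaged by probe (55681 probes), and 0 values were saturated.

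Members were chosen on the series table. Levels, differences and limma 3.58.1 fits (R 4.3.3, data.table at version 1.17.8) used the scanner values, scaled in the same way. The fit held 5 group means over 16 arrays and 37037 probes, with Benjamini-Hochberg adjustment over all probes, two-sided. A value after ± is its standard error. The fit was tested on simulated data. For 1 member, A_55_P1970693, wild type DT replicate 2 has no value and the fit used the other array. The description field of 1 wild type PBS lung (replicate 1) mentions DT; its title, source and treatment say PBS and were followed. Members, gene lists and roles were chosen with earlier results of these data known. Roles were assigned to 44 members from general knowledge. RefSeq accessions matched 55 members, symbols or synonyms 9, and 17 were unmatched. Genes named in the text are the study genes, the 12 members with the largest rise, the 12 with the largest fall, the 10 brightest with PBS, those on a fixed list, the 4 lowest and 4 highest wild type differences and those next to a threshold. Others (Bbox1, Htr2b and those listed by role or position) were named after their values were seen. Results for some genes are not reported here.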

Additional observations from a re-analysis of the deposited data

Results flagged for a closer look

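Among the 33 named members, 99 groups of 4 arrays were examined and 8 held an array set apart from the other 3 by Dixon's criterion at the 95% level, where chance gives about 1 in 20. At 2 months, Dppa3 read 0.8845% of the 75th percentile in replicate 1, above the others, on a probe not well above background there. With PBS, Masp1 was lowest in replicate 4 at 3.886%, Syt5 lowest in replicate 1 at 472.2%, Grip2 highest in replicate 2 at 13.18% and 1700007K13Rik highest in replicate 4 at 224.8%. After DT, Masp1 was highest in replicate 2 at 2.647%, Klhl14 highest in replicate 1 at 4.854% and Cd209f lowest in replicate 4 at 45.85%.

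For 3 named members both DT-treated wild type lungs lay above both PBS-treated wild type lungs, opposite to the ARF-DTR lungs. Over all 81 members there were 5 such genes, beside 17.7% of all probes. The 3 were among those named for the highest wild type difference, and the rule had asked for a fall in ARF-DTR. The opposite directions were thus set by the choice. The wild type difference of DT from PBS was 0.65 for Cdhr1, which in ARF-DTR was 4.01-fold lower with DT. It was 0.81 against -0.68 for D730003K21Rik, and 0.59 against -0.54 for 1700024P16Rik (Fyb2), where the ARF-DTR value turned to 0.03 under normexp. The difference between the genotypes was not tested, since the ARF-DTR arrays chose the genes.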

How the results depend on the processing

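The number of members, 81, depended most on the scaling and the filter: normexp gave 20, median scaling 35, quantile normalization 52 and no filter on brightness 205. Leaving out 1 array gave 68 to 163. The median rise was 0.60 under normexp, and the median fall after DT was -0.39 there, -0.77 under median scaling and -0.76 for the 56 members above background on all arrays. Normexp also moved the difference from wild type PBS to -0.54 and from wild type DT to -0.30. The causes were not tested. Calls in the wild type contrast were 0 among members and 0 among the 106 genes. They were 1 and 1 on the second slide alone and 0 to 4 in both sets with an array left out. Genes lower at an unadjusted p under 0.05 ranged from 5 to 22 and from 7 to 25 with an array left out. The wild type median ranged from -0.51 to -0.19. Other leave-one-out medians were 0.87 to 1.07 (rise), -1.05 to -0.86 (fall), -0.99 to -0.89 (from wild type PBS) and -0.73 to -0.47 (from wild type DT). Counting bright arrays on ARF-DTR lungs alone, an alternative added after seeing the data, gave 74 members and a wild type median of -0.35. Of 93 other alternatives 81 kept direction and size and 12 moved; 0 reversed.

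Replicate numbers did not pair the samples: 6 of 26 same-number pairs correlated above 0.1 (-0.17 to 0.31). With the replicate block, 0 members and 0 of the 106 genes were called, and 18 and 20 were lower at an unadjusted p under 0.05. Dim probes and 2 lungs per wild type group are among the limits on the precision.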
